A study of Rattus norvegicus with 4 samples.

Results

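Myc and its Max network were described here in Rat1 fibroblasts through 4 genes, Myc, Mycn, Max and Mxi1, represented by 7 of the 8740 probe sets analysed. A probe set was taken where the annotation of this Affymetrix GeneChip rat genome array gave it 1 gene symbol and that symbol was one of the 4, among 4736 symbols named in this way. A probe set is a group of short oligonucleotides on the array designed against one transcript sequence. The Myc and Mxi1 genes each had 2 probe sets, as did Max, while Mycn had 1.

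Myc proteins are transcription factors with a basic region, a helix-loop-helix and a leucine zipper (bHLHZip), which bind DNA as heterodimers with Max, at E-boxes of the type CANNTG and preferentially at CACGTG. Max also pairs with repressors of the Mxd family, to which Mxi1 belongs, and with Mnt and Mga, so that activators and repressors share 1 partner. In fibroblasts the Myc gene is known to be silent or low without serum and to be induced soon after serum is added back.

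The 4 arrays came from a design that crossed cell line with time. Rat1-Omomer cells were stably infected with a retrovirus that produces Omomer, which is Omomyc, a mutant of the c-Myc bHLHZip domain, fused to the tamoxifen-inducible oestrogen receptor domain ERTM. Rat1-control cells carried the control virus. Both lines were starved for 48 h in 0.1% serum with 4-OHT (tamoxifen), and RNA was taken at 0 min and at 90 min of 10% serum. The methods of the study place the 4-OHT addition later than the labels do, so its duration is uncertain. Whether each line was a clone or a pool of infected cells is not given in the sources used here. Each line at each time was represented by 1 array, so that no value had a replicate, no difference was tested and no p was computed. The titles gave the line of each array, while the transfection label of Rat1-Omomer at 0 min read control vector and that of Rat1-control at 90 min read Omomyc. By that label alone, line and time could not be told apart.

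Values are average differences, an intensity in which mismatch signal is subtracted from perfect match signal and which can fall below 0. The noise, estimated from the values below 0, had an SD of 524, and a floor was set at 2 SDs, or 1048. A fold is the ratio of floored values, a bound is given where 1 of the values lay under the floor, and no fold is given where both did. The noise range beside a fold is the range obtained when each value is moved by 1 noise SD, and it covers background noise only. For a bound, a value that stays under the floor when moved adds nothing to the range. The upper end of such a range is therefore no upper limit on the fold. On the 4 arrays 3365 to 3738 probe sets lay above the floor, and 49.3% of all probe sets lay under it on every array. All 23 probe sets of 9 fibroblast markers were above the floor on all 4 arrays. Epithelial and hepatocyte markers were above it for 0 to 1 of 9 probe sets, leukocyte markers for 3 to 4 of 9, neural markers for 1 of 4 and muscle markers for 0 to 2 of 7. An Esr1 probe set (S52128_s_at, chosen after its values were seen) read 4711 and 3334 in Rat1-Omomer at 0 and 90 min, against -927 and 3325 in Rat1-control, which does not separate the lines, and its match to the receptor part of Omomer was not tested. As RNA of whole cultures was measured, fewer cells that express a gene and less RNA per cell cannot be told apart.

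One group of probe sets stood apart on the Rat1-Omomer 90 min array and holds a member of the network. This EST group comprised 1744 probe sets made from expressed sequence tags (ESTs) of 5 accession series, those with rc_AA79, rc_AA80, rc_AA85, rc_AA87 and rc_AA89 at the start of the ID, and was delimited once the values had been seen. In this group 27.2% of the probe sets with a fold were lower by 3-fold or more in Rat1-Omomer than in Rat1-control at 90 min, against 3.3% of those outside it. In Rat1-control at 90 min over 0 min these shares were 1.94% in the EST group and 1.76% outside it. For 102 genes measured both in the EST group and outside it, each by the median of its probe sets, the median log2 fold of Rat1-Omomer over Rat1-control at 90 min was -0.61 in the EST group and 0.29 outside, and 27 genes were lower by 3-fold or more by their EST group probe sets, against 2 by their others. One Mxi1 probe set and the Mxd4 probe set belong to this group, and no Myc, Mycn or Max probe set does.

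The promoters of 3 genes of the network are shown with the letters that the network reads marked. Promoters of Myc and Mycn were not in the set used. RefSeq promoters on build GRCr8 (250 bases before a transcript start to 50 after it) were matched for Max and Mxi1, and for Mxd4, a Max partner on the array. The capitals mark every CANNTG, and since this motif is its own reverse complement, 1 search covers both strands. Max lies on the minus strand at chr6:101395241-101395540, Mxi1 on the plus strand at chr1:262348392-262348691 and Mxd4 on the plus strand at chr14:80786531-80786830. The start used for Mxi1 lies 19368 bases inside the annotated gene, so that its window is not at the outermost start, while those of Max and Mxd4 lie 43 and 13 bases inside.
Max: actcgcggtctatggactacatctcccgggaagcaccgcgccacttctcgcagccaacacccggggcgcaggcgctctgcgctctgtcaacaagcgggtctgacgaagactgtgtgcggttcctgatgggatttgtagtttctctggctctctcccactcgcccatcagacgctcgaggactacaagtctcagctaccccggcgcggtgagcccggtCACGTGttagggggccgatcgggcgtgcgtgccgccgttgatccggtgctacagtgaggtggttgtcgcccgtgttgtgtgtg
Mxi1: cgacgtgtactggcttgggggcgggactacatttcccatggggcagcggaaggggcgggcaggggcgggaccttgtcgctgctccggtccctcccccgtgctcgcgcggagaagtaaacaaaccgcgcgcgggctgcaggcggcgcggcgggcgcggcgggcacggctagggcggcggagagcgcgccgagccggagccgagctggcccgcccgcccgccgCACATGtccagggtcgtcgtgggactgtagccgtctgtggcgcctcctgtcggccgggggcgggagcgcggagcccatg
Mxd4: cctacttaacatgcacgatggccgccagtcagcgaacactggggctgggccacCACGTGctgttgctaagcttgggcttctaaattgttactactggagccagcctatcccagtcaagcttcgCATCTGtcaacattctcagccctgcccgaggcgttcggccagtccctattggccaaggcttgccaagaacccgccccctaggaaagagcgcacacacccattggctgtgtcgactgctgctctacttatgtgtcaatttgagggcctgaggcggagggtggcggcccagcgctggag
The Max window holds 1 E-box, of the CACGTG form. The Mxi1 window holds 1 E-box, CACATG, and no CACGTG. The Mxd4 window holds CACGTG and CATCTG. Mxd3, the other Max partner on the array, had no CANNTG in its window and is not shown. Over all 33469 rat promoters of the same length, 6.42% hold CACGTG and 72.1% hold a CANNTG. A match is a description of the letters and not a measured site.

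Myc, the activator of the network, was read above the floor on all 4 arrays by its probe set Y00396mRNA_g_at and was highest after serum in both lines. In Rat1-control the value was 4980 at 90 min, against 1172 at 0 min, which lies just above the floor of 1048. This is 4.25-fold higher at 90 min (noise range 2.63 to 5.25), and ranks 41 among the increases of 3985 probe sets with a fold. In Rat1-Omomer the value was 7233 at 90 min, against 2307 at 0 min, which is 3.14-fold higher (2.37 to 4.35) and ranks 111 of 4209. The Myc value thus stood past 3-fold after serum in either line, with the lower ends of both noise ranges under 3. The call in Rat1-control rests on the low value at 0 min. With a floor of 4 noise SDs that value lies under the floor, and the fold is only known to be at least 2.38.

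Of the 7 network probe sets, 3 had a fold in the Rat1-control serum response, and 1, this Myc probe set, was higher by 3-fold or more, where 1.93% of all probe sets were higher and 1.81% lower by as much. In the Rat1-Omomer serum response 2 had a fold, with Myc higher by 3-fold or more, against 2.9% of all probe sets, and Mxi1 lower by 3-fold or more, against 9.65%. With 2 or 3 probe sets per comparison, the network's counts are given as values and no share is read from them.

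**Figure D1:**
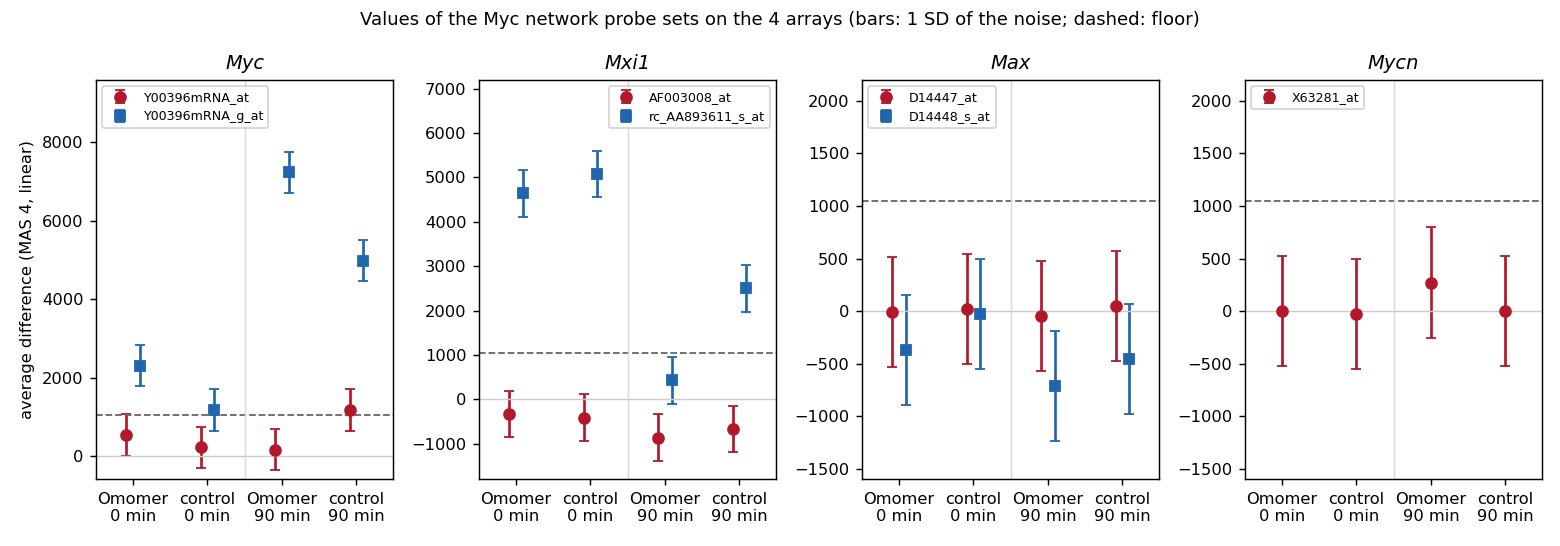
Average differences (intensity units, linear axes that differ in range between panels) of the 7 probe sets of Myc, Mxi1, Max and Mycn on the 4 arrays, with bars of 1 noise SD and the floor of 1048 as a dashed line. Myc Y00396mRNA_g_at reaches 7233 and the Mxi1 EST probe set reads 430 on the Rat1-Omomer 90 min array, while Mycn, Max and the second Mxi1 probe set lie under the floor on all 4 arrays.

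Between the lines, Myc was higher in Rat1-Omomer at both times on this probe set. At 0 min it read 2307 in Rat1-Omomer, against 1172 in Rat1-control, which is 1.97-fold higher (1.05 to 2.70). That is rank 59 among the increases of 3977 probe sets, in a comparison where few probe sets moved, as 0.251% were higher by 3-fold or more and 0.503% lower by 3-fold or more, and none of the 2 network probe sets with a fold was. At 90 min Myc read 7233 in Rat1-Omomer, against 4980 in Rat1-control, or 1.45-fold higher (1.22 to 1.74), at rank 1262 of 4048. Neither difference passed 3-fold. Omomer itself carries part of the c-Myc coding sequence, and what the probes share with it was not tested.

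Set against Rat1-control at 0 min, the reference that the study used, Myc was 6.17-fold higher in Rat1-Omomer at 90 min (3.96 to 7.40), rank 21 of 4220. In this comparison 2.8% of all probe sets were higher by 3-fold or more and 9.95% lower by 3-fold or more, and of the 2 network probe sets with a fold Myc was higher and Mxi1 lower. The serum response of Myc on the log2 scale was 1.65 in Rat1-Omomer and 2.09 in Rat1-control, a difference of -0.44. With a floor of 4 noise SDs the Rat1-control value at 0 min lies under the floor, so the difference is 0.40 or lower. That bound does not decide which line had the larger response. Over 3766 probe sets that difference had a median of 0.11, with the 5th percentile at -2.17 and the 95th at 1.42, so that the Myc value lay between the 5th percentile and the median.

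The other Myc probe set, Y00396mRNA_at, made from the same sequence record, did not follow. It read 159 in Rat1-Omomer and 1171 in Rat1-control at 90 min, and 534 in Rat1-Omomer and 222 in Rat1-control at 0 min. Only the Rat1-control 90 min value passed the floor, by a margin smaller than 1 noise SD. Its bounds are at least 1.12-fold higher at 90 min than at 0 min in Rat1-control (1 to 1.62), and at least 1.12-fold lower in Rat1-Omomer than in Rat1-control at 90 min (1 to 1.62), which is the opposite sign to the first probe set. Such disagreement is not rare on these arrays. Of 906 pairs of probe sets named X_at and X_g_at, 250 to 265 per array had only 1 of the pair above the floor. Among pairs above the floor on both arrays, 197 of 256 had the same direction in Rat1-Omomer over Rat1-control at 90 min, with an SD of 0.60 for the difference in log2 fold, and 235 of 297 in the Rat1-control serum response, with an SD of 0.43. The Myc difference between the lines at 90 min, 0.54 on the log2 scale, is smaller than the first of these SDs, and the Rat1-control serum response of 2.09 is larger than the second.

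Probe sets for other Myc family genes were under the floor. Mycn, which encodes N-Myc, the family member known from the nervous system, read 271 in Rat1-Omomer and 2 in Rat1-control at 90 min, and 0 in Rat1-Omomer and -25 in Rat1-control at 0 min (X63281_at). All 4 values lie within 1 noise SD of 0, so that no level and no fold can be given. A probe set for Mycs, an intronless rat relative of Myc that was added after the values were seen, was below 0 on all 4 arrays, between -1901 and -586.

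Max, the shared partner, was not detectable on any array. D14447_at read -48 in Rat1-Omomer and 47 in Rat1-control at 90 min, and -8 in Rat1-Omomer and 23 in Rat1-control at 0 min. D14448_s_at read -715 in Rat1-Omomer and -455 in Rat1-control at 90 min, and -373 in Rat1-Omomer and -29 in Rat1-control at 0 min. With 49.3% of all probe sets under the floor on every array, these values put no limit on the Max transcript beyond the floor itself.

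Mxi1, a Mxd family repressor that competes with Myc for Max, was read by 1 of its 2 probe sets and was lower after serum there in both lines. Its EST probe set rc_AA893611_s_at read 430 in Rat1-Omomer and 2501 in Rat1-control at 90 min, and 4641 in Rat1-Omomer and 5076 in Rat1-control at 0 min. The lines were close at 0 min, with Rat1-Omomer 1.09-fold lower (noise range 0.881 to 1.36, which includes no difference). In Rat1-control, Mxi1 was 2.03-fold lower at 90 min than at 0 min (1.50 to 2.83), rank 275 among the decreases. In Rat1-Omomer it was at least 4.43-fold lower at 90 min than at 0 min (3.93 to 4.93), at rank 198, with the 90 min value under the floor.

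At 90 min, Mxi1 was at least 2.39-fold lower in Rat1-Omomer than in Rat1-control (1.89 to 2.89), rank 484 of 4048 among the decreases. None of the 3 network probe sets with a fold reached 3-fold in this comparison, where 2.22% of all probe sets were higher by 3-fold or more and 8.57% lower by 3-fold or more. Against Rat1-control at 0 min it was at least 4.84-fold lower in Rat1-Omomer at 90 min (4.34 to 5.34), at rank 165 of 4220. With a floor of 4 noise SDs the bounds of 4.84-fold and 4.43-fold become at least 2.42-fold and at least 2.21-fold. At that floor they no longer show whether the decreases pass 3-fold. The difference in serum response, Rat1-Omomer minus Rat1-control, was -1.13 or lower on the log2 scale, and -1.13 lies between the 5th percentile and the median of all probe sets.

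This Mxi1 probe set lies in the EST group, and on the Rat1-Omomer 90 min array it was low together with many others of that group. In it 29.6% of the probe sets were lower by 3-fold or more at 90 min than at 0 min in Rat1-Omomer, against 3.7% outside. For Rat1-Omomer at 90 min over Rat1-control at 0 min the shares were 28.9% and 4.36%. The part of this in the Mxi1 decrease in Rat1-Omomer was not tested. The 2.03-fold difference in Rat1-control does not involve that array. The second Mxi1 probe set, AF003008_at, lies outside the group and read -862 in Rat1-Omomer and -665 in Rat1-control at 90 min, and -324 in Rat1-Omomer and -407 in Rat1-control at 0 min, so that no probe set outside the group gave a level for Mxi1.

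**Figure D2:**
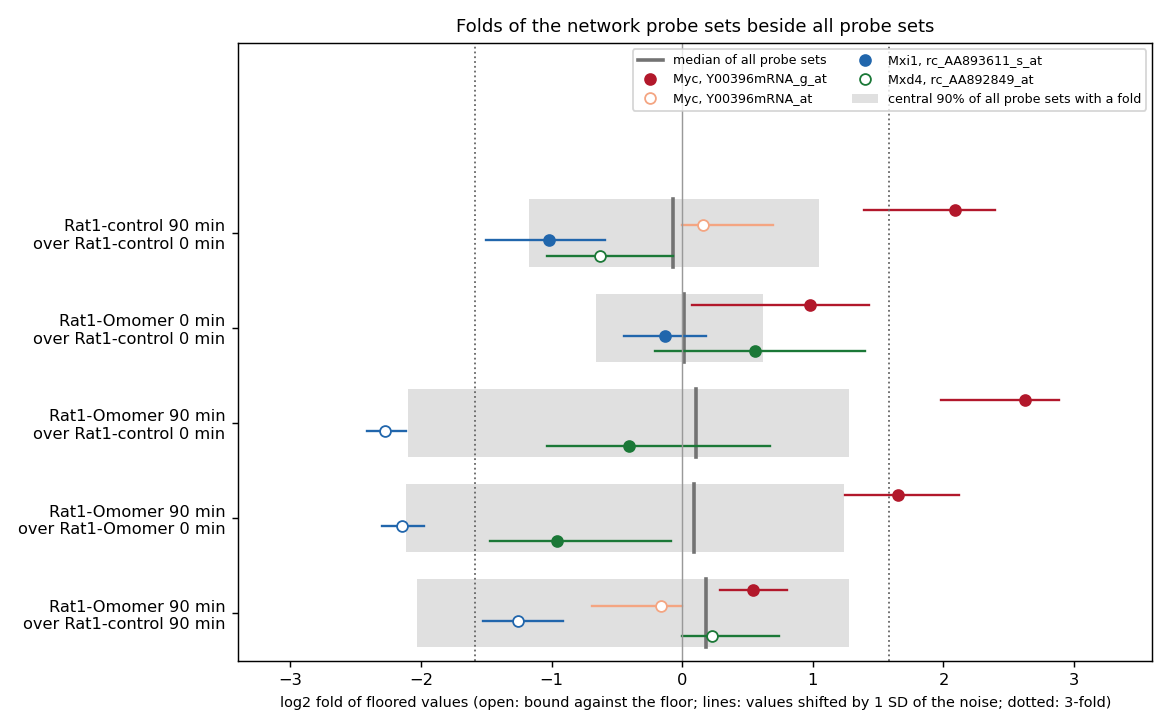
Log2 folds of the Myc, Mxi1 and Mxd4 probe sets in the 5 comparisons, with lines for values moved by 1 noise SD, open symbols for bounds against the floor, and grey bars for the central 90% of all probe sets with a fold. Myc Y00396mRNA_g_at lies right of the grey bar in 4 comparisons and inside it for Rat1-Omomer over Rat1-control at 90 min, and Mxi1 lies left of it for Rat1-Omomer at 90 min over either 0 min array.

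Of 10 further Max network genes (Mycl, Mxd1, Mxd3, Mxd4, Mnt, Mga, Mlx, Mlxip, Mlxipl and Zbtb17, the last encoding the Myc partner Miz-1), 2 had a probe set with their symbol. Mxd4, a repressor of the Mxd family, read 1227 in Rat1-Omomer and -59 in Rat1-control at 90 min, and 2385 in Rat1-Omomer and 1625 in Rat1-control at 0 min (rc_AA892849_at). It was at least 1.55-fold lower at 90 min in Rat1-control and 1.94-fold lower at 90 min in Rat1-Omomer (1.06 to 2.78). Between the lines, Mxd4 was at least 1.17-fold higher in Rat1-Omomer at 90 min and 1.47-fold higher at 0 min (0.866 to 2.64, which includes no difference). Its values were thus lower at 90 min than at 0 min in both lines, as for Mxi1, and at 90 min higher in Rat1-Omomer, where Mxi1 was lower. The value of 1227 lies at the floor that the noise of its own array would give, 1228, and the probe set lies in the EST group. Mxd3, also a Mxd repressor, was below 0 on all 4 arrays, between -1361 and -317.

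**Figure D3:**
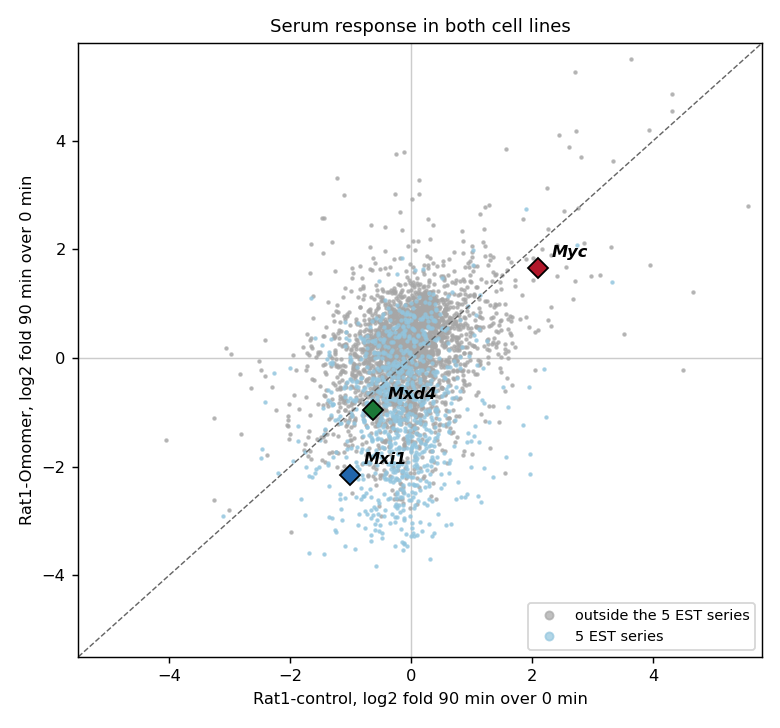
Log2 serum response (90 min over 0 min) in Rat1-Omomer on the vertical axis against that in Rat1-control on the horizontal axis, 1 point per probe set with a fold in both lines and the network probe sets marked. Myc lies at 1.65 and 2.09 and the Mxi1 EST probe set at -2.15 (a bound) and -1.02, so that each has the same sign in both lines.

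The patterns most like those of Myc and Mxi1 over the 4 arrays were sought among 3194 probe sets, by the root mean square difference of log2 values centred on their mean. For Myc these were Emp1 (0.21), an epithelial membrane protein gene, Slc7a1 (0.22), which encodes a cationic amino acid transporter, Ifrd1 (0.27), Acta2 (0.31), which encodes smooth muscle actin, and Msx2 (0.32), a homeobox gene. Emp1 read 32654 in Rat1-Omomer and 30921 in Rat1-control at 90 min, and 12147 in Rat1-Omomer and 7707 in Rat1-control at 0 min. It has in common with Myc the higher values after serum in both lines and the higher value in Rat1-Omomer at 0 min. For Mxi1 the nearest were Sri (0.09), which encodes the calcium-binding protein sorcin, Sirt2 (0.09), which encodes a deacetylase, Ntan1 (0.09), Idh1 (0.14), which encodes isocitrate dehydrogenase, and Tmem126b (0.15). All 5 probe sets nearest to Mxi1 belong to the EST group and read 210 to 1002 on the Rat1-Omomer 90 min array, whereas none of the 5 nearest to Myc does.

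Cofactors of Myc were listed as 23 genes, of which 9 had 13 probe sets, and few were above the floor. In Rat1-Omomer over Rat1-control at 90 min, 0 of 5 with a fold were higher by 3-fold or more and 1 was lower by as much. Over all probe sets these shares were 2.22% and 8.57%. The median log2 fold was -0.60, against 0.18 over all probe sets. Outside the EST group the median was -1.21 over 3 probe sets, which is the Ruvbl1 bound against the floor. Smarcb1, a subunit of the SWI/SNF chromatin remodelling complex, read 1102 in Rat1-Omomer and 3834 in Rat1-control, 3.48-fold lower. Sp1, a general transcription factor, read 1159 in Rat1-Omomer and 1759 in Rat1-control, 1.52-fold lower. The Rat1-Omomer values of Smarcb1 and Sp1 lie under 1228, the floor that the noise of that array would give. Hdac2, a histone deacetylase, read 6110 in Rat1-Omomer and 6196 in Rat1-control. Ruvbl1, which encodes an ATPase that binds Myc, read 440 in Rat1-Omomer and 2420 in Rat1-control on AB002406_at, at least 2.31-fold lower. The other probe sets of Smarcb1 and Ruvbl1 were under the floor in both lines at 90 min. In the Rat1-control serum response none of 8 passed 3-fold, where 1.93% of all probe sets were higher and 1.81% lower by as much. The median was -0.29, against -0.07 over all probe sets. There Ruvbl1 was 1.12-fold higher at 90 min and Smarcb1 1.44-fold lower.

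Genes reported elsewhere as activated by Myc mostly stood higher after serum in Rat1-control. Of 42 listed genes, 26 had 42 probe sets, and 36 of these had a fold. At 90 min over 0 min in Rat1-control, 31 were higher and 5 lower, whereas over all probe sets 1754 of 3985 were higher and 2231 lower. The median log2 fold was 0.37, against -0.07 over all probe sets. By 3-fold or more, 3 were higher and 0 lower, where 1.93% of all probe sets were higher and 1.81% lower by as much. Slc2a1, the glucose transporter GLUT1, read 19376 at 90 min, against 2674 at 0 min, on S68135_s_at (7.25-fold higher) and was 7.80-fold higher on M13979_at. The third, named although its 0 min value lies under the floor, was Hk2 on D26393exon_s_at, with 5994 at 90 min and 409 at 0 min. The other Hk2 probe set, M68971_at, did not follow, with 4624 at 90 min, against 5079 at 0 min. Odc1, the rate-limiting enzyme of polyamine synthesis, read 4211 at 90 min, against 1775 at 0 min, which is 2.37-fold higher on J04791_s_at. In Rat1-Omomer the same Odc1 probe set read 5321 at 90 min and 4229 at 0 min, so that, like Myc, it was already higher in Rat1-Omomer than in Rat1-control before serum. The lowest was Apex1, a DNA repair endonuclease, 1.39-fold lower at 90 min.

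Between the lines these targets split. At 0 min, 26 of 35 were higher in Rat1-Omomer than in Rat1-control and 9 lower, none by 3-fold, with a median log2 fold of 0.26. Over all probe sets, 2056 of 3977 were higher and 1916 lower, with a median of 0.01. At 90 min, 1 of 37 was higher by 3-fold or more in Rat1-Omomer and 6 were lower by 3-fold or more, where 2.22% of all probe sets were higher and 8.57% lower by as much, and the median was 0.09, against 0.18 over all probe sets. Outside the EST group the counts were 1 and 4 of 33, against 2.57% and 3.3% of all probe sets outside it, with a median of 0.19. The 6 lower ones were 2 probe sets each of Hmga1 and Hnrnpa1 and 1 each of Slc16a1, a monocarboxylate transporter gene, and Rpl3, a ribosomal protein gene, and the higher one was Eef1a1, a translation elongation factor gene. Slc16a1, Rpl3 and Eef1a1 were named after their values were seen. For Rpl3 and Slc16a1 the other probe set did not follow. Rpl3 read 13144 in Rat1-Omomer and 70698 in Rat1-control on a probe set of the EST group, but 91966 in Rat1-Omomer and 60362 in Rat1-control on X62166cds_s_at outside it. Slc16a1 read 2765 in Rat1-Omomer and 3089 in Rat1-control on its second probe set D63834_at. Hmga1, which encodes an architectural chromatin protein, read 2965 in Rat1-Omomer and 20262 in Rat1-control at 90 min, 6.83-fold lower, and its second probe set was 7.78-fold lower. On X62875mRNA_at Hmga1 was also lower in Rat1-Omomer at 0 min, with 6212 against 11683 in Rat1-control. Ppat, the first committed enzyme of purine synthesis, went the other way, with 3038 in Rat1-Omomer and 1510 in Rat1-control at 90 min, 2.01-fold higher. Probe sets of Hnrnpa1, a splicing factor gene, disagreed, with rc_AA799893_g_at of the EST group 6.45-fold lower, M12156_at outside it 3.57-fold lower and rc_AA965147_at outside it 2.01-fold higher. Apex1 was 2.01-fold higher in Rat1-Omomer.

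Cad and Ncl, well-known Myc targets, were looked up after their values were seen. Cad, a pyrimidine synthesis enzyme gene, was below 0 on all 4 arrays (-1401 to -377). Ncl, which encodes nucleolin, read 11385 in Rat1-Omomer and 20763 in Rat1-control at 90 min, and 15427 in Rat1-Omomer and 13671 in Rat1-control at 0 min (M55015cds_s_at), so that it was higher after serum in Rat1-control and lower after serum in Rat1-Omomer.

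Among genes reported elsewhere as repressed by Myc, the large differences in the serum response came from Gadd45a and Txnip. Of 24 listed genes, 19 had 44 probe sets and 33 of these had a fold. In the Rat1-control serum response 0 were higher by 3-fold or more and 6 lower by 3-fold or more, against 1.93% and 1.81% of all probe sets. The median was 0.12, against -0.07 over all probe sets. The 6 were 4 probe sets of Gadd45a and 2 of Txnip, a thioredoxin-interacting protein gene named after its values were seen. Gadd45a, a growth arrest gene, read 1326 at 90 min, against 21925 at 0 min, on L32591mRNA_at, 16.5-fold lower, and was 9.52-fold and 4.10-fold lower on its other probe sets L32591mRNA_g_at and rc_AI070295_g_at. Cav1, Fn1 and Itgb1, genes of the cell surface and matrix, were 1.92-fold, 1.84-fold and 1.81-fold higher at 90 min. The Fn1 fold is that of U82612cds_at, the highest of its probe sets. The lowest, X05831cds_at, read 4698 at 90 min, against 5199 at 0 min.

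In Rat1-Omomer over Rat1-control at 90 min, 5 of 32 repressed-target probe sets were higher by 3-fold or more and 3 lower by 3-fold or more, against 2.22% and 8.57% of all probe sets, with a median of 0.33, against 0.18. Outside the EST group 4 of 30 were higher and 2 lower, all 4 of Gadd45a and both of Ccnd1. Of all probe sets outside the group, 2.57% were higher and 3.3% lower by 3-fold or more. Gadd45a read 6070 in Rat1-Omomer and 1326 in Rat1-control on L32591mRNA_at, 4.58-fold higher, and was 5.12-fold and 4.46-fold higher on the probe sets rc_AI070295_at and rc_AI070295_g_at. In Rat1-Omomer it also was lower at 90 min than at 0 min, when it read 17252 on L32591mRNA_at. At 0 min its probe sets disagreed between the lines, with 17252 in Rat1-Omomer and 21925 in Rat1-control on L32591mRNA_at, and 15479 in Rat1-Omomer and 5670 in Rat1-control on rc_AI070295_at. Ccnd1, which encodes cyclin D1, is counted here among the repressed targets, whereas the study treats it as a gene activated by Myc. Its values depended on the probe set, with 1378 in Rat1-Omomer and 5756 in Rat1-control on D14014_g_at (4.18-fold lower), and 4485 in Rat1-Omomer and 4241 in Rat1-control on D14014_at. Itgb1 was 2.24-fold lower and the EST group probe set of Col1a2, a collagen gene, 3.93-fold lower in Rat1-Omomer.

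The CACGTG letters were found in the promoters of 4 of 26 activated targets with a RefSeq promoter (15.4%), namely Eif4e, Slc16a1, Apex1 and Cdk4. They were found in 0 of 13 repressed targets and in 8.42% of 4191 genes on the array. The other lists held them in 3 of 16 immediate early genes (18.8%), 1 of 9 cofactors (11.1%) and 1 of 12 other bHLH and Id genes (8.33%). The window of 300 bases leaves out E-boxes further away, and the shares are given as a description.

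Immediate early genes, which answer serum without new protein synthesis as Myc does, had 48 probe sets of 24 genes. In the Rat1-control serum response 4 of 42 were higher by 3-fold or more and 7 lower by 3-fold or more at 90 min. Over all probe sets these shares were 1.93% and 1.81%. The median was -0.35, against -0.07 over all probe sets. Dusp5, a phosphatase of MAP kinases, was 6.10-fold higher, and Fos, a subunit of AP-1, 7.85-fold lower on X03347cds_g_at. In Rat1-Omomer over Rat1-control at 90 min, 10 of 40 were higher by 3-fold or more and 4 lower by 3-fold or more. Over all probe sets these shares were 2.22% and 8.57%. The median was 0.94, against 0.18 over all probe sets. Dusp1, another phosphatase of MAP kinases, read 43122 in Rat1-Omomer and 6787 in Rat1-control on U02553cds_s_at (6.35-fold higher). Nr4a1, an orphan nuclear receptor gene, read 60829 in Rat1-Omomer and 8879 in Rat1-control (6.85-fold higher), whereas Plaur, the urokinase receptor gene, read 2431 in Rat1-Omomer and 26308 in Rat1-control (10.8-fold lower). At 0 min, in Rat1-Omomer over Rat1-control, 0 of 39 were higher by 3-fold or more and 8 were lower by 3-fold or more. Over all probe sets these shares were 0.251% and 0.503%. The median was -0.70, against 0.01 over all probe sets. Myc, with 1.45-fold at 90 min and 1.97-fold at 0 min, stood higher in Rat1-Omomer at both times.

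Genes of other bHLHZip and bHLH factors and the Id genes, whose products share the helix-loop-helix, had 19 probe sets of 12 genes. In the Rat1-control serum response 3 of 14 were higher by 3-fold or more and 0 lower, against 1.93% and 1.81% of all probe sets. Id3, which encodes an inhibitor that pairs with bHLH proteins without binding DNA, read 28332 at 90 min, against 2297 at 0 min, on AF000942_at (12.3-fold higher), and Id1 was 3.56-fold higher on L23148_g_at. On its other probe set, L23148_at, Id1 was 1.59-fold lower, with 2131 at 90 min, against 3379 at 0 min. Usf1, which encodes another protein that binds CACGTG, was 2.01-fold lower at 90 min on a probe set of the EST group. In Rat1-Omomer over Rat1-control at 90 min 1 of 12 was higher by 3-fold or more and 0 were lower, against 2.22% and 8.57% of all probe sets. The higher one was Tcf4, a bHLH factor, with 8663 in Rat1-Omomer and 2723 in Rat1-control (3.18-fold higher). Id2 was 2.61-fold higher in Rat1-Omomer and Id1 2.15-fold lower on L23148_g_at.

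**Figure D4:**
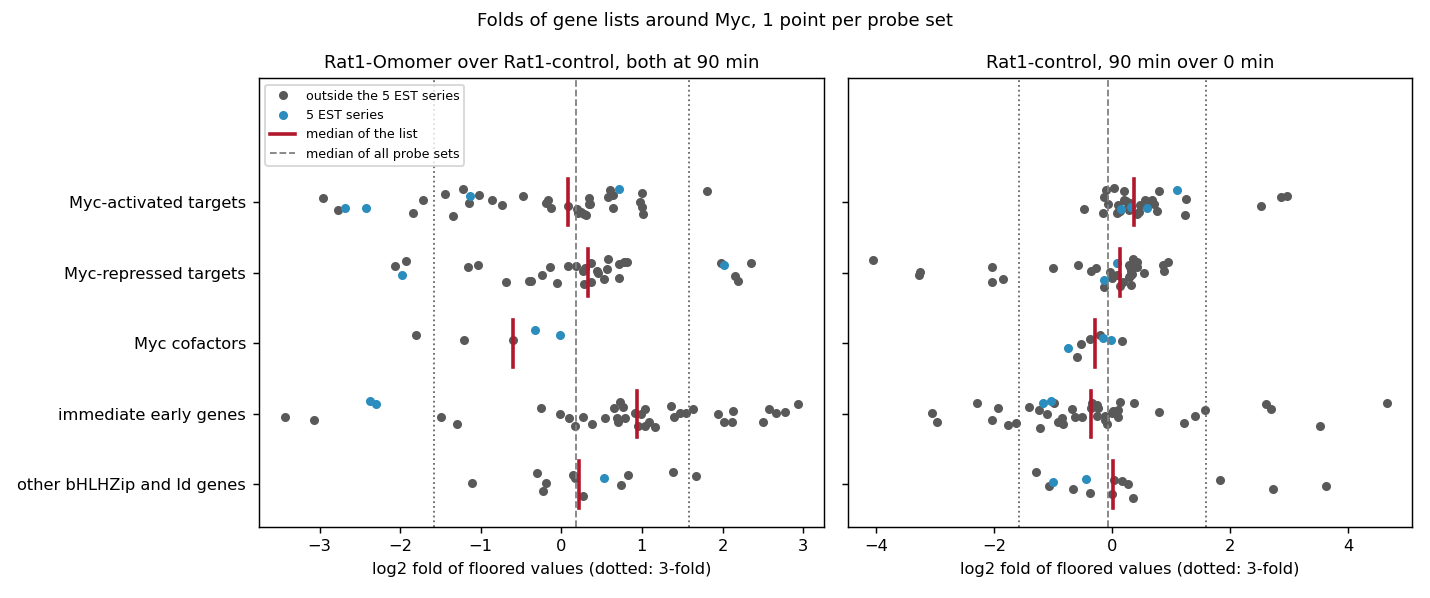
Log2 folds of 5 gene lists around Myc, 1 point per probe set with a fold, for Rat1-Omomer over Rat1-control at 90 min (left) and for Rat1-control at 90 min over 0 min (right), with the EST group in blue, a red line for the median of each list and a dashed line for the median of all probe sets. The activated targets have a median of 0.37 at right and 0.09 at left, where their points lie on both sides of 0.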

How the data were processed

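The series holds 4 Affymetrix rat genome arrays of Rat1 cells, 1 per line and time. The deposited values are intensities on a linear scale, average differences that the authors computed and scaled with Affymetrix MAS 4, with negative values kept. The arrays were used as scaled. Of 8799 probe sets, 59 manufacturer control probe sets were left out. Of the rest 7006 had 1 symbol, 308 several and 1426 none in the platform annotation. The noise SD was 1.4826 times the median size of the values below 0 on all arrays, the floor 2 SDs and the threshold 3-fold, as in the methods of the study. The depth of an array has no count, and with 1 array per condition no test, SD between replicates or p-value was computed. Named were all network probe sets, the Max partners on the array, and of each other list the 3 highest and 3 lowest folds above the floor in 2 comparisons, with exceptions stated beside them. The members and lists were chosen with earlier results of these data known. Promoters came from RefSeq (GRCr8), and the build does not touch the array values. Alternatives were other floors, scalings, a difference form of the fold and leaving out EST probe sets. The fold and call functions were tested on simulated data. Python 3.11.15, numpy 2.4.6, pandas 2.3.3 and matplotlib 3.10.9 were used.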

Additional observations from a re-analysis of the deposited data

Results flagged for a closer look

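In 18 probe sets of the listed genes named above, none of them of Myc, Mycn, Max or Mxi1, the serum response (90 min over 0 min) went in opposite directions in the lines by more than the shift of 1 noise SD gives. Only network probe sets and probe sets of genes picked for the text were searched. Many of these were picked for extreme folds in these same data, so the count does not show how common such differences are. With 1 array per condition none of these differences was tested. The differences, Rat1-Omomer minus Rat1-control, are on the log2 scale.

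Of the immediate early genes, Dusp1 had a response of 3.31 in Rat1-Omomer and -1.23 in Rat1-control (U02553cds_s_at), a difference of 4.54, and its other 2 probe sets differed by 4.10 and 2.73. For Nr4a1 the responses were 3.76 in Rat1-Omomer and -0.25 in Rat1-control on U17254_at, a difference of 4.01, and U17254_g_at differed by 3.91. Fos differed by 2.76 on X06769cds_g_at (1.13 in Rat1-Omomer and -1.63 in Rat1-control). The difference was 2.08 for Tcf4 (0.79 in Rat1-Omomer and -1.30 in Rat1-control) and 0.72 for Apex1 (0.24 in Rat1-Omomer and -0.48 in Rat1-control).

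In the other direction, among the activated targets, Ncl differed by -1.04 (-0.44 in Rat1-Omomer and 0.60 in Rat1-control), while Hmga1 differed by -1.86 and -2.38 on its 2 probe sets. Hnrnpa1 differed by -2.05 on M12156_at (-1.59 in Rat1-Omomer and 0.46 in Rat1-control). Its probe set rc_AA965147_at was higher after serum in Rat1-Omomer, with 9325 at 90 min, against 3436 at 0 min. Its EST group probe sets were lower there, with 1056 against 8577 on rc_AA799893_g_at and 211 against 1153 on rc_AA799893_at. Slc16a1 differed by -2.05 on rc_AI145680_s_at (-1.39 in Rat1-Omomer and 0.66 in Rat1-control), and Rpl3 by -2.32 on its EST group probe set (-1.99 in Rat1-Omomer and 0.32 in Rat1-control). The other probe sets of Slc16a1 and Rpl3 did not follow in Rat1-Omomer. There D63834_at of Slc16a1 read 2765 at 90 min, against 2365 at 0 min, and X62166cds_s_at of Rpl3 91966 against 48622. Of the repressed targets, Fn1 differed by -0.99 on X05834_at (-0.69 in Rat1-Omomer and 0.29 in Rat1-control). The other Fn1 probe sets did not follow in Rat1-Omomer. There M28259cds_at read 19339 at 90 min, against 8585 at 0 min, U82612cds_at 9878 against 4688 and X05831cds_at 5339 against 3423. U82612cds_g_at was near level, with 20182 against 20516. Itgb1 differed by -1.46 on rc_AI177366_at (-0.61 in Rat1-Omomer and 0.85 in Rat1-control). Ccnd1 differed by -2.42 on D14014_g_at (-2.08 in Rat1-Omomer and 0.34 in Rat1-control). In Rat1-Omomer D14014_at read 4485 at 90 min, against 4296 at 0 min, and rc_AA957218_at 2524 against 1600, so these did not follow. X75207_s_at was lower there, with 797 against 3424. Col1a2, in the EST group, differed by -1.93 (-1.84 in Rat1-Omomer and 0.09 in Rat1-control).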

How the results depend on the processing

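Of 82 values of network probe sets under the alternatives, 80 kept their sign. With a floor of 4 SDs the difference in serum response of Myc Y00396mRNA_g_at was 0.40 or lower (-0.44 as reported). This bound does not show a turn of sign, as the Rat1-control 0 min value lay under that floor. With the own floor of each array Myc Y00396mRNA_at had a log2 fold of 0 for Rat1-Omomer over Rat1-control at 90 min. There the Rat1-Omomer floor of 1228 lies above the Rat1-control value of 1171, so that no direction can be given. In all, 63 of the 82 values moved by less than the noise allows and 19 by more, and scaling the arrays to 1 median or quantile normalization left all 24 results in place. Quantile normalization shifted the median log2 fold of all probe sets by 0.14 for Rat1-Omomer at 90 min over either 0 min array. The floor mattered most. With a floor of 1 noise SD the Myc probe set Y00396mRNA_at had log2 folds of 1.16 for Rat1-control 90 over 0 min and -1.16 for Rat1-Omomer over Rat1-control at 90 min (0.93 and -0.97 with the difference form of MAS 4). With 4 SDs, Myc Y00396mRNA_g_at had at least 1.25 for Rat1-control 90 over 0 min and at least 1.79 for Rat1-Omomer 90 min over Rat1-control 0 min. Mxi1 on its EST probe set had, for Rat1-Omomer 90 min over Rat1-control 0 min, -3.28 (1 SD), -1.28 (4 SDs), -2.05 (own floor of each array) and -2.44 (difference form). Over Rat1-Omomer 0 min it had -3.15, -1.15, -1.92 and -2.33 under the same settings, and over Rat1-control 90 min -2.25 (1 SD), -0.25 (4 SDs) and -1.57 (difference form). Its difference in serum response was -2.13 or lower (1 SD) and -0.13 or lower (4 SDs). Folds in which 1 value lies under the floor in use are bounds at every floor.

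Counts of probe sets at least 3-fold changed over the whole array moved by more than 1.5 times as follows. With a floor of 1 SD, 156 were lower in Rat1-control 90 over 0 min (72 as reported); 25 were higher and 55 lower in Rat1-Omomer over Rat1-control at 0 min (10 and 20); and Rat1-Omomer at 90 min had 192 higher and 691 lower over Rat1-control 0 min (118 and 420), 203 and 676 over Rat1-Omomer 0 min (122 and 406), and 164 and 560 over Rat1-control 90 min (90 and 347). With 4 SDs the counts, higher and lower in the same order of comparisons, were 49 and 32 (77 and 72), 4 and 12, 74 and 203, 76 and 192, and 47 and 183. The difference form gave 18 and 36 at 0 min. Without probe sets whose IDs start with rc_, 40 were lower in Rat1-control 90 over 0 min, 6 higher in Rat1-Omomer at 0 min, 94 and 68 lower in Rat1-Omomer at 90 min over Rat1-control and Rat1-Omomer at 0 min, and 54 higher and 64 lower over Rat1-control 90 min. Without the 5 EST series, an alternative chosen after seeing the data, 142, 120 and 104 were lower in the 3 comparisons of Rat1-Omomer at 90 min. No cause of these moves was tested beyond the floor and the probe sets left out. No paired analysis was possible because each condition has 1 array, and no replicate could be left out. A value near the floor limits what can be said: Mycn, both Max probe sets and AF003008_at of Mxi1 were under it on every array.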

Other observations

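Genes with CACGTG in the promoter window were set beside the other genes with a RefSeq promoter, as a description chosen after the data were examined. In Rat1-Omomer over Rat1-control at 90 min the median log2 fold was 0.11 over 291 probe sets with CACGTG and 0.17 over 2513 without, and 9.97% with CACGTG were at least 3-fold lower, against 9.19% without. Outside the EST group the shares were 3.43% with CACGTG and 3.23% without. In the Rat1-control serum response 1.42% with CACGTG were at least 3-fold higher, against 2.24% without. Mycbp2, which encodes a large Myc-binding protein and was looked up after the data were seen, read 3135 in Rat1-Omomer and 3815 in Rat1-control at 90 min, and 6887 in Rat1-Omomer and 6526 in Rat1-control at 0 min, on a probe set of the EST group (rc_AA800029_at).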
